A study of Mus musculus with 11 samples.

Results

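The genes described here are the receptors and ligands of the glial cell line-derived neurotrophic factor (GDNF) family. They comprise the ligand genes Gdnf, Nrtn (neurturin) and Artn (artemin), the co-receptor genes Gfra1, Gfra2, Gfra3 and Gfra4, the receptor tyrosine kinase gene Ret, and Ncam1, which encodes the neural cell adhesion molecule. Members were taken as the probe sets annotated with exactly 1 of these 9 symbols, which gave 111 of the 179496 probe sets with a single gene symbol and 9 of 15803 genes. The set was assembled with the difference of Gfra1 between Tardbp hairpin and control cells already known. Values of the members in that contrast are therefore a description, without a test.

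GDNF family ligands act on target cells through a glycolipid-anchored GFRA co-receptor, which binds the ligand and brings it to the RET kinase. Each ligand has a preferred co-receptor: GDNF binds GFRA1, neurturin GFRA2, artemin GFRA3 and persephin GFRA4. Activated RET recruits adaptor proteins that feed the ERK, PI3 kinase and phospholipase C gamma pathways. GDNF bound to GFRA1 can also signal through NCAM and the kinase FYN in cells without RET. Motor neurons carry RET and GFRA1, and GDNF from muscle and Schwann cells is a survival and innervation factor for them.

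RNA was measured on 11 whole-transcript arrays from NSC34 cells, made by fusing mouse neuroblastoma cells with spinal cord neurons. All groups carried a short hairpin expressed from the pSUPERIOR vector after lipofection, and stable clones were taken under puromycin. The 3 groups were shTardbp (Tardbp targeted, which encodes TDP-43, a protein that binds RNA; arrays 1 to 4), shGFP (control; arrays 1, 2, 3 and 5) and shLuciferase (control, a hairpin against Renilla luciferase; arrays 1, 2 and 4). Whether each array stands for its own clone or culture is not stated, so the p-values reflect spread between samples that may be technical only. A difference between stable lines and an effect of the hairpin's target cannot be told apart where a group is 1 clone. In RNA from whole cultures, fewer expressing cells and less RNA per cell cannot be told apart either. The sequence that defines the knockdown group is the target site given in the labels, 25 bases with 14 G or C:

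shTardbp target: tctaagcaaagccccagacgagcct

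All values are log2 signals, and a gene value is the mean over its probe sets. Tardbp was at 8.80 to 8.997 in shTardbp and at 9.08 to 9.42 in the 7 control arrays, so the targeted gene was lower in every shTardbp array. The fall was modest, to 75.8% of the average of the control means (log2 difference -0.40, SE 0.0722). All 10 Tardbp probe sets had a negative difference. In 2 of the 10 all shTardbp arrays lay below all controls, as they did in 5.78% of all probe sets. No detection call was used. The 25th percentile of all probe sets on an array, which lay between 4.46 and 4.57, served as a low-signal mark, and a gene under it is not shown to be above background. Array codes open with P for the 4 shTardbp arrays and shLuciferase 4 and with C for the other 6, and the meaning of these letters is unknown here. A fit with the letter as a block reads the letter's effect only from shLuciferase 4 against the other shLuciferase arrays. Such a fit rests on that array, and a call lost in it need not mean a smaller difference. Of 12 motor neuron markers measured, 8 lay above the low-signal mark on all 11 arrays, among them the vesicular acetylcholine transporter gene Slc18a3, the peripherin gene Prph and Isl1. The other 4, Chat, Slc5a7, Mnx1 and Chodl, lay below it on all arrays, so the cholinergic enzyme and the motor neuron factor Mnx1 were not shown to be expressed. By limma 3 of the 12 rose in shTardbp, also against each control (Ache 2.10-fold, Slc18a3 1.55-fold and Isl2 1.19-fold), and 0 fell, beside 13.5% and 17% of all genes. The mean level of the list was 7.14 to 7.30 in shTardbp, 6.96 to 7.02 in shGFP and 6.99 to 7.04 in shLuciferase, and its part in the results was not tested.

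As gene means the ligand genes gave low signals in all 3 groups, though single probe sets were well above the low-signal mark. Gdnf, the founding ligand of the family, ranged over 4.69 to 5.03 (shGFP), 4.65 to 4.83 (shLuciferase) and 4.76 to 4.96 (shTardbp). Nrtn had 5.15 to 5.23, 5.14 to 5.31 and 5.06 to 5.35 in the same order. Artn had 3.93 to 4.01, 3.94 to 4.12 and 3.95 to 4.03, below the low-signal mark on all 11 arrays. The groups overlapped for each ligand. Mean differences between shTardbp and the controls were 0.071 (SE 0.0738) for Gdnf, 0.000098 (SE 0.0683) for Nrtn and -0.028 (SE 0.0544) for Artn. The contrast sets the shTardbp mean against the average of the 2 control means, and the standard errors come from limma. Gdnf and Nrtn lay above the mark as gene means, but only 3 of 9 Gdnf probe sets and 2 of 6 Nrtn probe sets exceeded it on all arrays. For Artn 2 of 14 did. The brightest were Nrtn 4996091 (8.55 to 9.04 over the 11 arrays, difference 0.082), Gdnf 4324739 (7.13 to 7.96, difference 0.13) and Artn 5210636 (6.06 to 7.20, difference -0.031). In each of these the shTardbp arrays overlapped with the controls.

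**Figure D1:**
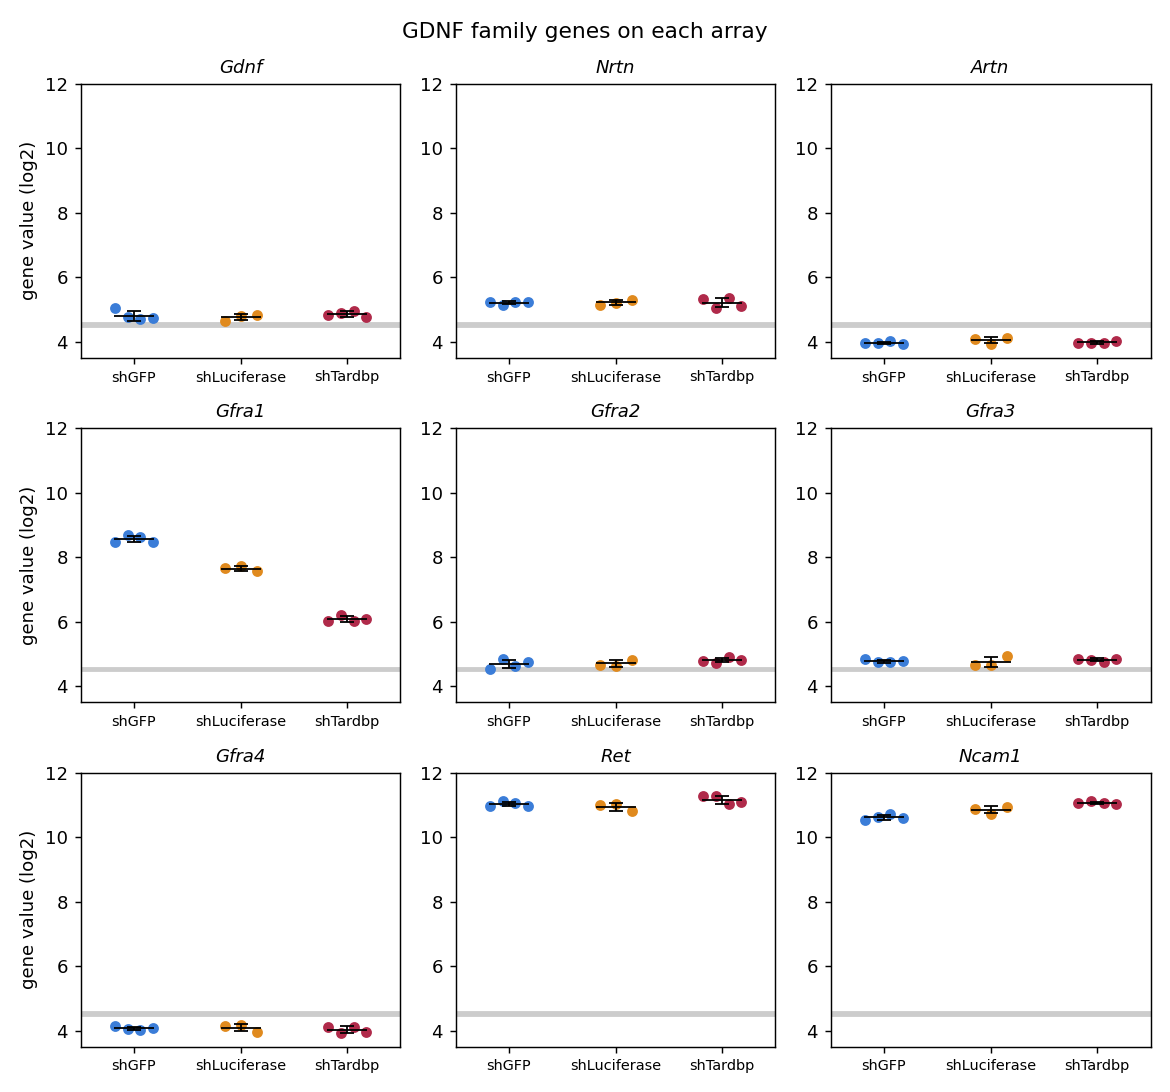
Gene values (log2) of the 9 GDNF family genes on each array, with a point per array, the group mean as a bar and the SD as its error; the grey band is the range over the arrays of the 25th percentile of all probe sets (4.46 to 4.57). Gfra1 falls into 3 separate groups, Ncam1 is highest in shTardbp, Ret is high in every group, and the other genes lie near or below the band.

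Gfra1, the co-receptor that binds GDNF, was lower in shTardbp than in either control and differed between the controls. Its values were 8.47, 8.67, 8.62 and 8.48 in shGFP 1, 2, 3 and 5. In shLuciferase 1, 2 and 4 they were 7.65, 7.71 and 7.57. The shTardbp arrays 1 to 4 had 6.03, 6.21, 6.03 and 6.08. No array of any group reached the range of another, and the order was shGFP, then shLuciferase, then shTardbp. Means were 8.56 ± 0.102 (SD, n = 4), 7.65 ± 0.0718 (n = 3) and 6.09 ± 0.0857 (n = 4). The shTardbp signal was 24.8% of the controls' (log2 difference -2.01, SE 0.0638). It was 5.54-fold lower than in shGFP (-2.47, SE 0.0717) and 2.94-fold lower than in shLuciferase (-1.56, SE 0.0774). These comparisons share the shTardbp arrays. Among arrays with a P code, the shTardbp mean lay 1.48 below shLuciferase 4 on the log2 scale. With the code letter as a block the difference was -1.92.

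The Gfra1 gene value averages probe sets of unlike behaviour. In 11 of its 13 probe sets all 4 shTardbp arrays lay below all 7 control arrays, with log2 differences from -3.25 to -1.62. Probe set 4470711 had the widest gap. Its shGFP values were 7.44 to 8.12, its shLuciferase values 6.05 to 6.61 and its shTardbp values 3.35 to 4.35. All 4 of the last were below the low-signal mark, so the size of that fall is uncertain. The smallest of the 11 belonged to probe set 5246954, at 8.59 to 8.70, 7.68 to 8.04 and 6.38 to 6.92.

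The remaining pair of Gfra1 probe sets showed no such separation, and it is named here after its values were seen. Probe set 5314328 was well above the mark on all arrays and gave 9.71 in shGFP, 9.61 in shLuciferase and 9.68 in shTardbp as group means, a difference of 0.026. Probe set 5532551 was near the mark, with group means of 4.71, 4.81 and 4.61. The median over the 13 probe set differences was -2.18. With the median of the probe sets as the gene value the difference was -2.43, so the gene mean gives a smaller fall than most of its probe sets. Probe set positions were not used here, and whether these probe sets measure another part of the transcript, another transcript or cross-hybridising signal was not tested.

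**Figure D2:**
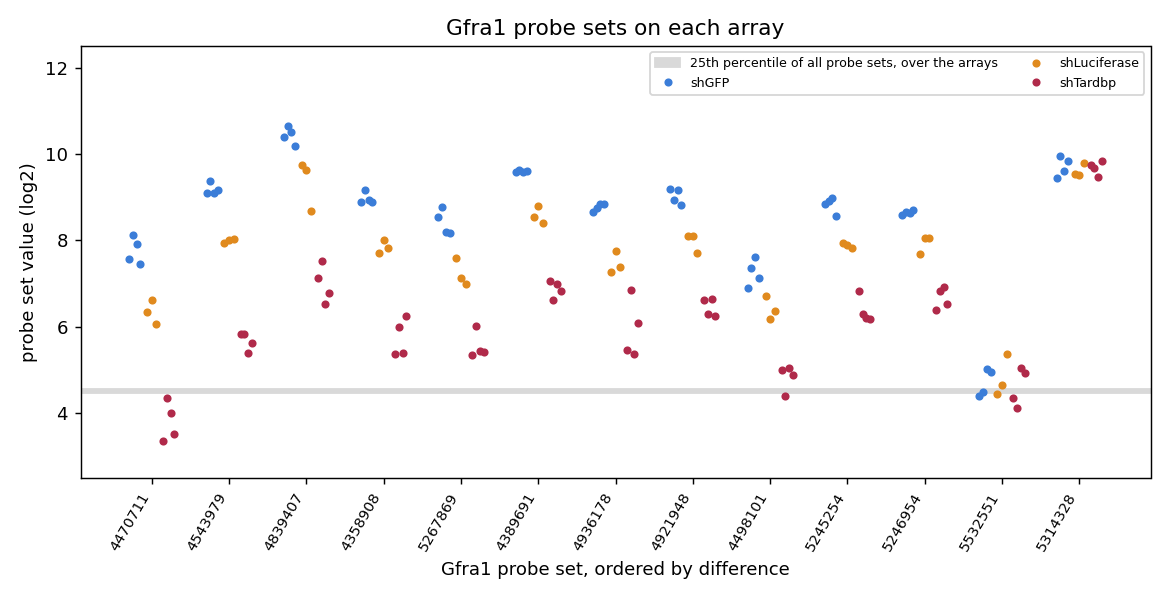
Values (log2) of the 13 Gfra1 probe sets on each array, ordered from the most negative difference to the most positive, with a point per array coloured by group. In 11 probe sets the shTardbp points lie under the shLuciferase points and these under the shGFP points, while 5532551 and 5314328 show all groups at 1 level.

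Across probe sets the 3-step order of Gfra1 recurred. The same 11 probe sets that separated shTardbp from the controls also separated shGFP from shLuciferase, with shGFP higher by 0.72 to 1.42 on the log2 scale. Over all probe sets with 1 symbol, 7.36% had shGFP above shLuciferase without overlap, 5.78% had shTardbp below all controls, and 11.2% had it apart from them in either direction.

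As gene means the other co-receptor genes were near or below the low-signal mark in every group. Gfra2, the neurturin co-receptor, had 4.55 to 4.84 in the controls and 4.73 to 4.89 in shTardbp (difference 0.10, SE 0.0683). Gfra3, the artemin co-receptor, had 4.65 to 4.93 and 4.76 to 4.86 (0.061, SE 0.0632). Gfra4, the persephin co-receptor, had 3.97 to 4.17 and 3.93 to 4.12 (-0.052, SE 0.0628), and it was under the mark on all 11 arrays. All 3 overlapped between groups, and none of their 30 probe sets separated shTardbp from the controls. The number of probe sets above the mark on all arrays was 3 of 11 for Gfra2, 6 of 13 for Gfra3 and 2 of 6 for Gfra4. The brightest, Gfra2 5404257, was at 6.36 to 7.36 in the controls and 5.78 to 7.65 in shTardbp. Thus Gfra1 was the only co-receptor gene whose gene value was well above the mark in the control groups.

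Ret, the signalling kinase shared by all family ligands, gave a strong signal in every group. It had 10.96, 11.13, 11.05 and 10.97 in shGFP, 10.998, 11.02 and 10.80 in shLuciferase, and 11.28, 11.27, 11.03 and 11.08 in shTardbp. The arrays shTardbp 1 and 2 lay above all controls, and shTardbp 3 and 4 lay within the range of shGFP. The mean difference was 0.18 (SE 0.0703), with 0.14 (SE 0.0790) against shGFP and 0.22 (SE 0.0854) against shLuciferase. All 23 Ret probe sets lay above the mark on all arrays and all had a positive mean difference, from 0.079 to 0.32. In 4 of the 23 all shTardbp arrays lay above all controls, as they did in 5.43% of all probe sets. Ret was lowest in shLuciferase 4, the control with a P code, and with the code letter as a block the difference was 0.35.

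Ncam1, the alternative GDNF receptor with GFRA1, was higher in shTardbp. Its values were 10.54, 10.62, 10.71 and 10.60 in shGFP, 10.88, 10.73 and 10.94 in shLuciferase, and 11.05, 11.12, 11.05 and 11.03 in shTardbp. The 3 groups did not overlap, although shGFP 3 and shLuciferase 2 nearly met, and the order was the reverse of that of Gfra1. The control groups alone did not overlap in 20.1% of all genes. The shTardbp signal was 1.26-fold that of the controls (log2 0.33, SE 0.0590), 1.36-fold that of shGFP and 1.16-fold that of shLuciferase. Of its 16 probe sets, 15 had a positive difference (up to 0.58) and 6 separated shTardbp from all controls, by 0.30 to 0.54. Over all probe sets, 5.43% had shTardbp above all controls. The exception, 4911955, had a difference of -0.022. Within the P arrays the shTardbp mean lay 0.13 above shLuciferase 4, and with the code letter as a block the difference was 0.22.

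**Figure D3:**
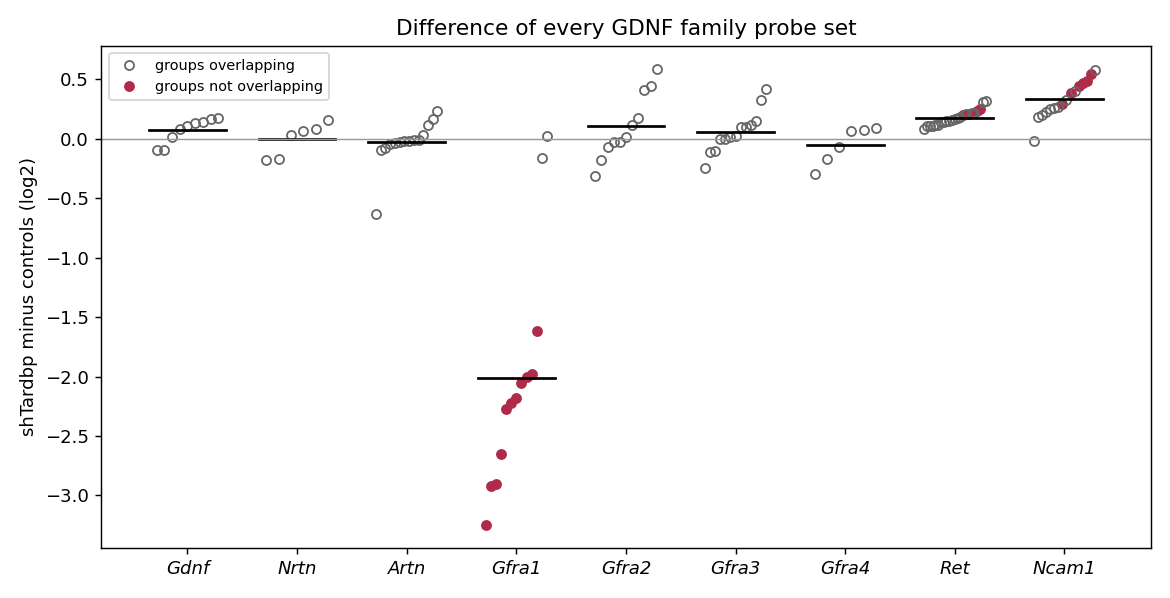
Mean difference (log2, shTardbp minus the average of both control means) of each of the 111 probe sets, by gene, with the gene's own difference as a black bar; filled points are probe sets whose shTardbp arrays lie apart from all 7 controls. Filled points occur in Gfra1 (11, all below 0), Ncam1 (6, all above 0) and Ret (4, all above 0).

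By gene value, 1 member lay below and 1 above all controls, 2 of 9 (22.2%), where 9.82% of all genes lay below, 8.45% above and 18.3% either way. The median member difference was 0.061, against 0.00717 over all 15803 genes. Since the members were chosen with this contrast known, nothing is read from these shares.

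The contrast between the control groups was tested with limma, with Benjamini-Hochberg adjustment over all genes. Members were chosen with earlier results of these data known. That this contrast had no part in the choice is not shown, so the adjusted p-values of the members are descriptive only. Only Gfra1 passed among the 9 members (11.1%, where 11.1% of all genes passed). It was 1.88-fold higher in shGFP than in shLuciferase (log2 0.91, SE 0.0774, limma adjusted p = 5.97e-06), in all 4 shGFP arrays. Ncam1 was lower in shGFP by a difference of -0.23 (SE 0.0717, limma adjusted p = 0.0544), and this missed the threshold of 0.05. It passed with quantile normalization, with array weights, over genes above the median level and without shLuciferase 2 (limma adjusted p = 0.0409, 0.0489, 0.0359 and 0.0347). In the other 15 settings it did not pass, and over all 19 the limma adjusted p ran from 0.0347 to 0.222, the last with the replicate number as a block. For Ret the difference was 0.086 (SE 0.0854, limma adjusted p = 0.672), and for the other 6 genes it lay between -0.078 and 0.044 (limma adjusted p at least 0.591). The control hairpins thus differed in Gfra1 by a log2 step of 0.91, beside the -1.56 that separated shTardbp from the nearer control.

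The genes whose 11-array profile was nearest to that of Gfra1 were found by the root mean square difference of log2 values after each gene was centred on its own mean. Its median over the other 15802 genes was 1.08. The 6 nearest were Gprc5b (0.146), an orphan receptor gene, Atf3 (0.155), a stress-induced transcription factor, Prelp (0.170), a matrix protein, Eps15 (0.201), an endocytic adaptor, Dcn (0.224), the matrix proteoglycan decorin, and Alpl (0.309), the tissue-nonspecific alkaline phosphatase. Their shared order of groups was fixed by this choice and is no finding. Atf3 had 8.78, 7.95 and 6.57, and Gprc5b had 7.27, 6.52 and 4.67. The step between the controls was widest in Dcn (1.14) and narrowest in Alpl (0.33), against 0.91 in Gfra1. Dcn is also on the list of fibroblast markers. Of the 8 fibroblast markers measured, 2 fell (Dcn by -1.61 and Pdgfra by -0.92) and 1 rose (Pdgfrb, not against shGFP alone, limma adjusted p = 0.822), beside 17% and 13.5% of all genes. Their median difference was -0.010. Their mean level was 5.06 to 5.18 in shTardbp, below shLuciferase (5.30 to 5.38) and shGFP (5.42 to 5.51). Dcn and Pdgfra were the main contributors, and the order of groups in Dcn is that of the likeness to Gfra1 noted above. Differences of Col1a1, Col1a2, Col3a1 and Thy1 lay between -0.017 and 0.052. Lum lay under the low-signal mark on all arrays, and the part of the fibroblast markers in the Gfra1 values was not tested.

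**Figure D4:**
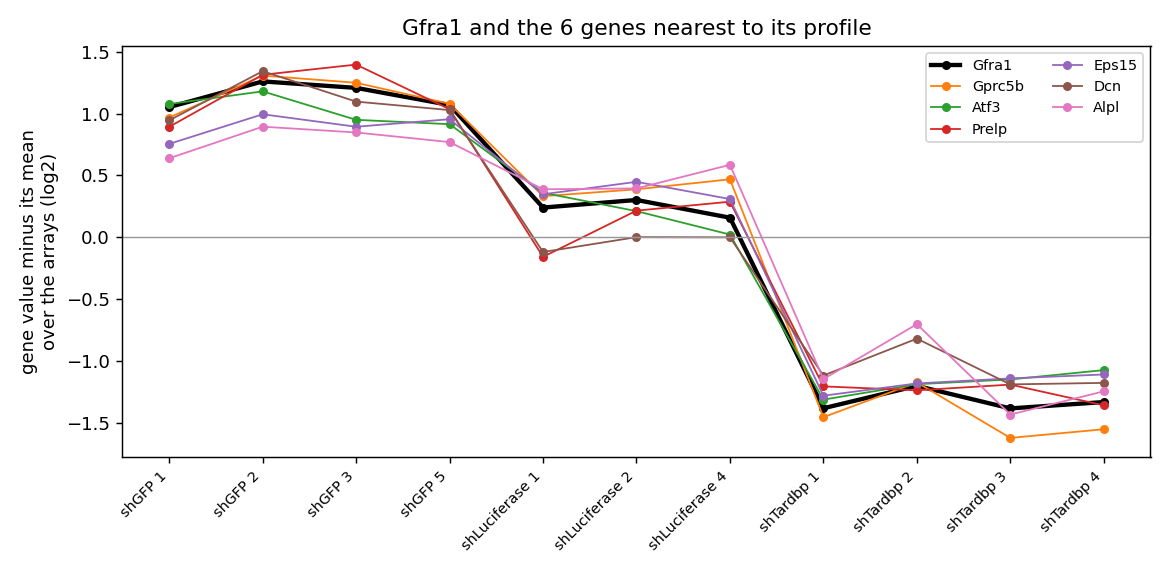
Gene value minus its mean over the 11 arrays (log2) for Gfra1 (thick line) and the 6 genes with the smallest root mean square difference from it; lines join the values of a gene and the arrays have no order within a group. The genes were chosen for this likeness, so all 7 being highest in shGFP and lowest in shTardbp follows from the choice.

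Other genes of the pathway were tested in lists chosen by function, though with earlier results of these data known. Of 110 genes listed 93 were measured, and 17 rose (18.3%) and 19 fell (20.4%) in shTardbp against both controls by limma, where 13.5% of all genes rose, 17% fell and 30.5% did either. Their median difference was 0.0232. The 36 calls became 19 (20.4%) with the code letter as a block, while calls over all genes went from 4825 to 2509 (15.9%). Against shGFP alone 13 rose and 17 fell (all genes: 12.4% and 15.5%), and against shLuciferase alone 21 rose and 14 fell (11.8% and 14.3%). These 2 comparisons share the shTardbp arrays.

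Among relatives of the family, only Gas1 of 6 passed, as a fall (16.7% lower and 0% higher, beside 17% and 13.5% of all genes). GAS1, a GFRA-like membrane protein that can bind RET, had a log2 difference of -0.17 (SE 0.0530, limma adjusted p = 0.0277), and the call was lost without any of shGFP 3, shLuciferase 2 or shTardbp 2, 3 or 4 (limma adjusted p = 0.0549 to 0.0872). Pspn, the ligand of GFRA4, and Gfral, the receptor of GDF15, had differences of -0.013 and -0.00096. Gdf15 was higher in shGFP (8.97) than in shLuciferase (7.79), with shTardbp between them at 8.56.

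RET adaptors and the kinase cascade downstream rose more often than they fell, with 10 of 30 higher and 1 lower (33.3% and 3.33%, beside 13.5% and 17% of all genes) and a median difference of 0.105. Shc3, the neuronal Shc adaptor, was at 8.31 to 8.51 in shTardbp and 7.68 to 7.96 in the controls, a rise of 1.52-fold (log2 0.60, SE 0.0611, limma adjusted p = 6.26e-06). Shc1 rose 1.25-fold (limma adjusted p = 0.000184) and the docking protein gene Gab2 1.27-fold (limma adjusted p = 0.00052, and 0.0954 with the code letter as a block). These 3 and the phospholipase gene Plcg1 (1.25-fold) were higher against each control on its own. Dok5, a RET docking protein, rose against both controls together (1.57-fold, limma adjusted p = 6.2e-06). Its values overlapped, however: shTardbp had 5.97 to 6.03, shGFP 5.78 to 6.09 and shLuciferase 4.78 to 4.84. Dok5 differed between the controls, and against shGFP alone limma gave an adjusted p of 0.23. Irs1, Mapk3 and Map2k1 likewise passed against shLuciferase and not against shGFP. Cbl and Akt1 did the reverse. They passed against shGFP (limma adjusted p = 0.00479 and 0.0153) and not against shLuciferase (0.0649 and 0.160). The 1 gene that fell was the inhibitory adaptor gene Grb10 (-0.30). It differed by -0.53 from shGFP but by -0.062 from shLuciferase (limma adjusted p = 0.703), with overlapping groups. The count of falls was 3 without shLuciferase 4, 2 without shGFP 5, 2 without shTardbp 2 and 2 without shTardbp 4. With the code letter as a block 5 were higher and 0 lower.

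Response genes of RET and ERK signalling fell in 8 of 16 cases and rose in 2 (50% lower, beside 17% of all genes and 13.5% that rose), with a median of -0.124. Against shGFP alone 6 fell and 1 rose (all genes: 15.5% and 12.4%). Against shLuciferase alone 5 fell and 2 rose (14.3% and 11.8%), among the latter Dusp6 (0.73, limma adjusted p = 0.000661). The list mean was 8.03 to 8.15 in shTardbp, 8.27 to 8.37 in shGFP and 8.09 to 8.15 in shLuciferase, so it overlapped with shLuciferase. Spry2, a feedback inhibitor of receptor kinases, was at 6.19 to 6.64 in shTardbp and 6.84 to 7.45 in the controls, a fall of 1.76-fold (log2 -0.81, SE 0.108, limma adjusted p = 5.88e-05). Myc, a growth regulator, fell (log2 -0.59, SE 0.0582, limma adjusted p = 5.09e-06), and Wnt11, a target of RET in the ureteric bud, fell 1.26-fold (-0.34). The immediate early gene Egr1 fell 1.30-fold (-0.37). When gene values were medians over probe sets, limma gave an adjusted p of 0.486 for Egr1 and 0.753 for Wnt11. With the code letter as a block Wnt11 was at -0.17 (limma adjusted p = 0.280). These 4 were lower against each control on its own. Spry1 (-0.47) and Etv5 (-0.37) fell against shGFP (limma adjusted p = 6.91e-05 and 0.000171) and not against shLuciferase (0.946 and 0.183). The 2 that rose did not pass against each control: Fos (0.38) had a limma adjusted p of 0.55 against shGFP alone, and Spred1 (0.32) one of 0.0534 against shLuciferase alone. Without shGFP 2 there were 4 that rose. The count of falls was 4 with the code letter as a block, and also 4 when gene values were medians over probe sets.

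**Figure D5:**
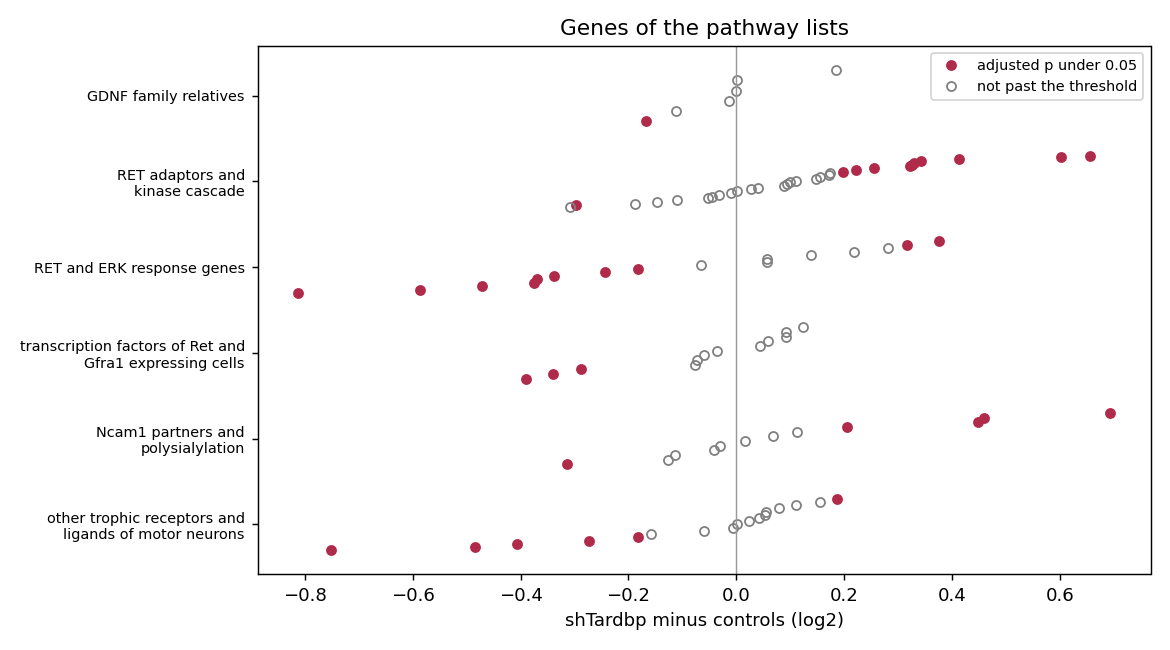
Difference (log2, shTardbp minus the average of both control means) of each measured gene in the 6 pathway lists, sorted within a list; filled points passed limma's adjusted p of 0.05. Filled points lie mainly above 0 among RET adaptors (10 of 11) and mainly below 0 among response genes (8 of 10).

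Transcription factors of cells that express Ret and Gfra1 had 3 lower and 0 higher of 12 measured, beside 17% and 13.5% of all genes. Hand2, a factor of sympathetic neurons, fell 1.31-fold (log2 -0.39, limma adjusted p = 0.00119) and Gata3 1.27-fold (-0.34, limma adjusted p = 0.00095). Rara, a retinoic acid receptor, fell by -0.29 (limma adjusted p = 0.0117) but not against shGFP alone (limma adjusted p = 0.569). None of the 3 passed with the code letter as a block (limma adjusted p = 0.262, 0.0545 and 0.581). Their differences were then -0.25, -0.37 and -0.13, so that of Gata3 was not smaller. Of the list, 1 gene fell when gene values were medians over probe sets, and 1 rose without shTardbp 1. Phox2a, an activator of Ret in autonomic neurons, had a difference of 0.12, and Isl1 was at 8.66 in shGFP, 7.55 in shLuciferase and 8.15 in shTardbp.

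Among partners of NCAM1, 4 of 12 rose and 1 fell (33.3% and 8.33%, beside 13.5% and 17% of all genes). Agrn, the gene of the synapse-organising proteoglycan agrin, was at 9.52 to 9.80 in shTardbp and 8.73 to 9.17 in the controls, a rise of 1.62-fold (log2 0.69, SE 0.0870, limma adjusted p = 3.72e-05). The adhesion molecule genes Cntn2 and L1cam rose 1.36-fold and 1.38-fold (limma adjusted p = 0.000214 and 0.00103), and the focal adhesion kinase gene Ptk2 rose 1.15-fold. All 4 were higher against each control on its own, and 4 were higher with the code letter as a block. Fyn, the kinase that acts downstream of NCAM, fell 1.24-fold (-0.31, limma adjusted p = 0.00118), with a limma adjusted p of 0.265 against shLuciferase alone. The polysialyltransferase genes St8sia2 and St8sia4, which modify NCAM, had differences of -0.030 and -0.042.

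Other trophic receptors and ligands of motor neurons were measured for comparison, and 5 of 17 fell and 1 rose (29.4% and 5.88%, beside 17% and 13.5% of all genes). Ngfr, the neurotrophin receptor without a kinase domain, fell 1.33-fold (log2 -0.41, SE 0.0678, limma adjusted p = 0.000383) and was lower against each control, but limma gave an adjusted p of 0.104 with the code letter as a block. Cntfr, the co-receptor of ciliary neurotrophic factor, fell 1.21-fold (-0.27, limma adjusted p = 0.00189), with a limma adjusted p of 0.071 against shGFP alone. Of the ligand genes, Igf1 fell 1.68-fold (-0.75, limma adjusted p = 0.000321) and Hgf 1.40-fold (-0.49, limma adjusted p = 0.00179), the latter with a limma adjusted p of 0.731 against shLuciferase alone. With that block 3 genes of the list fell. The 1 rise, of the cytokine receptor gene Il6st, was lost without shGFP 1, shGFP 2, shLuciferase 4, shTardbp 1, shTardbp 3 or shTardbp 4, each of which left 0 rises. In size none of the named genes of these lists reached the Gfra1 difference of -2.01. That difference was known when the members were chosen, so nothing is read from this comparison. Markers of Schwann cells and glia, which also carry GDNF receptors, had 2 of 8 higher by limma (Erbb3 and Mbp) and 0 lower. Over all genes 13.5% were higher and 17% lower. The mean level of the list was 6.28 to 6.41 in shTardbp, against 6.19 to 6.27 (shGFP) and 6.18 to 6.25 (shLuciferase). Erbb3 (0.56) and Mbp (0.24) were the main contributors, and the median difference of the list was 0.070. Their part in these results was not tested.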

How the data were processed

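The deposited values are log2 probe set signals of 11 arrays. Partek and RMA are named for them, without versions, per the submitters' processing notes. RMA's options and the genome build of the annotation: not given in the sources used here. Probe sets were named from the platform annotation: of 194293, 179496 had 1 symbol, 1328 several (not used) and 13469 none. A gene value was the mean of its probe sets' log2 values (15803 genes).

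A single unpaired model of 3 groups took in every gene (limma 3.58.1 under R 4.3.3; lmFit, then eBayes), with Benjamini-Hochberg adjustment over all genes, a threshold of 0.05 and no filter on low values. The script was tested on simulated data. The number of arrays limits the precision. Members and lists were chosen with earlier results of these data known. Named genes were all members, Tardbp, the up to 4 genes with the smallest adjusted p past the threshold in each list, and the 6 genes nearest to Gfra1; any further gene was named with its values known. List names were matched to older platform symbols through the RefSeq gene table of GRCm38.p6. Same-numbered arrays were not paired: correlations of their deviations from the group means ran from -0.0561 to 0.263. Alternatives were the median of probe sets, genes above the median level, quantile normalization, median centring, array weights, array code letter or replicate number as a block, probe sets above the 25th percentile, and leaving out each array.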

Additional observations from a re-analysis of the deposited data

Results flagged for a closer look

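In 70 groups of 4 arrays (35 genes, shGFP and shTardbp), 4 had an array set far from the other 3, and chance gives this in about 1 of 20 groups. Nrtn in shGFP 2 (5.15) lay below the other shGFP arrays (5.22 to 5.23). Dok5 in shGFP 2 (6.09) lay above the others (5.78 to 5.79). Egr1 in shTardbp 2 (6.92) lay above the others (6.70 to 6.74), and Egr1 in shGFP 3 (7.08) lay below the others (7.18 to 7.19). None of Gfra1, Ret or Ncam1 was among them.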

How the results depend on the processing

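The Gfra1 difference was -2.43 when gene values were medians over probe sets and -1.92 with the code letter blocked. In 17 of 19 settings it moved by less than the spread between arrays, and leaving out 1 array gave -2.06 to -1.99. Restricting to genes above the median level or to probe sets above the 25th percentile left its value as it was, since all its probe sets were kept. In the 16 settings where overlap could be read, 2 members lay apart from all controls. Most of these settings leave out an array or restrict the genes, which cannot make separate groups overlap, so nothing is read from this count. Between the controls, 2 members passed over genes above the median level, with quantile normalization and with array weights, and 1 to 2 when an array was left out. The 36 calls in the pathway lists became 19 with the letter blocked and 30 to 36 without 1 array. Against shGFP alone 30 became 19 with that block (29 to 35 without 1 array), and against shLuciferase alone 35 became 22 when medians over probe sets were used (30 to 38). The cause of these shifts was not tested. Of 20 named pathway genes, 7 lost their call with the code letter block and 5 when medians over probe sets were used. With the replicate number as a replicate block, Gfra1 was at -2.02, 1 member passed between the controls and 34 pathway genes passed; among named genes it changed only the call of Gas1 (limma adjusted p = 0.0561). Most probe sets of the ligands, Gfra2, Gfra3 and Gfra4 were not above the 25th percentile of signal on all arrays, and their gene means may understate a change.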
